A study of Caenorhabditis elegans with 2 samples.

Results

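The 8 genes dpy-18, phy-2, phy-3, pdi-1, pdi-2, dpy-11, bli-4 and dpy-31 encode enzymes that fold and process procollagen in Caenorhabditis elegans. They were taken by symbol from the Ensembl gene models, and are 8 of 19973 protein-coding genes on the nuclear chromosomes. Binding of NHR-23, a nuclear hormone receptor required for molting, was measured near them by chromatin immunoprecipitation and sequencing (ChIP-seq) of whole L3 larvae, males and females pooled, with an antibody whose target the labels give as nhr-23. Both biological replicates were of strain OP43, which per the labels carries unc-119(ed3) and the transgene wgIs43 for eGFP-tagged NHR-23, and they form 1 group, so no condition was compared. The labels give the age of the larvae as unknown and do not name the promoter that drives the transgene, and the control they list is not analysed here. Chromatin from whole larvae does not show in which cells a site was bound.

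The worm's cuticle is built largely of collagens that the epidermis makes anew for every molt. In the endoplasmic reticulum (ER), prolyl 4-hydroxylases modify prolines of the procollagen chains, which stabilises the triple helix, and protein disulfide isomerases catalyse disulfide bonding and also serve as a subunit of the hydroxylase. Trimers are then secreted and trimmed by proteases that remove the ends of the procollagen. Loss of several of these enzymes gives dumpy or blistered animals, after which dpy-18, dpy-11, dpy-31 and bli-4 are named.

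The bases around 1 summit of each of 6 members are shown here, since the results turn on these sites. For dpy-18 it is the only one, for the others the one with the highest signal in the promoter window. None is shown for phy-3, which had no summit, or for bli-4. Each stretch is ce11 sequence from the RefSeq copy of WBcel235, read 5′ to 3′ on the strand of the gene. It covers 50 bp on each side of the summit, cut short at pdi-2 where the annotated transcript starts. Capitals mark a nuclear receptor half-site (AGGTCA or GGGTCA) or the string GAGAGA, on either strand.
dpy-18 (chrIII:11380718-11380818, minus strand): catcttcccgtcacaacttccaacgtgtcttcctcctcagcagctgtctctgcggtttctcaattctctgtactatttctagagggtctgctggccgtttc
phy-2 (chrIV:12217323-12217423, minus strand): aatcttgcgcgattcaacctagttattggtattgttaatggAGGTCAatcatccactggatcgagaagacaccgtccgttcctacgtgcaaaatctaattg
pdi-1 (chrIII:3701694-3701794, minus strand): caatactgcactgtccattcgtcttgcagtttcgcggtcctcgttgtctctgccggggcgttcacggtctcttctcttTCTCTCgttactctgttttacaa
pdi-2 (chrX:4524083-4524154, plus strand): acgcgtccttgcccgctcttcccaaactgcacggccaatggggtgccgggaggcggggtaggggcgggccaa
dpy-11 (chrV:6514187-6514287, minus strand): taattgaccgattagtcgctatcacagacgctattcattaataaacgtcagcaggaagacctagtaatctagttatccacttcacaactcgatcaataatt
dpy-31 (chrIII:7201512-7201612, plus strand): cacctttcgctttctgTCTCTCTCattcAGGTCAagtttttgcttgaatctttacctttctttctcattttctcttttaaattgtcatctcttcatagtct
The half-site lies in the stretches of phy-2 and dpy-31. At dpy-31 it stands next to overlapping matches to GAGAGA on the other strand, and pdi-1 holds GAGAGA alone. The stretches of dpy-18, pdi-2 and dpy-11 hold neither, which says only that these letters are not in these windows.

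The authors' thresholded list, derived from both replicates, held 4944 peaks. Their signal, the authors' own value per peak, ran from 34.2 to 967.1 with a median of 60.4, and peaks were ranked by it with 1 the strongest. The thresholded peaks are the strongest of a pooled list of 30000, and the lists of replicate 1 and replicate 2 held 30000 and 27191 peaks. The lists give no read counts, so depth is unknown, and each rank is a place within its own list. Where replicate ranks are set side by side, the lists differ in length and may differ in depth.

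NHR-23 peaks lay near most of the enzyme genes. A thresholded summit lay within 5 kb of 7 of the 8, against 42.5% of all protein-coding genes. In the promoter window, from 1500 bp upstream to 500 bp downstream of an annotated start, 5 of the 8 had a summit (phy-2, pdi-1, pdi-2, dpy-11 and dpy-31), against 19.4% of all genes. Those without one were dpy-18, phy-3 and bli-4. The members were chosen with earlier results of these data known, which limits what these contrasts show. In all, 29 summits lay within 5 kb of a member, with a median signal of 66.9, and none of them was shared by 2 members. The median gene length was 4993 bp for the members, against 2027 bp for all protein-coding genes, so most of their windows are wider.

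**Figure D1:**
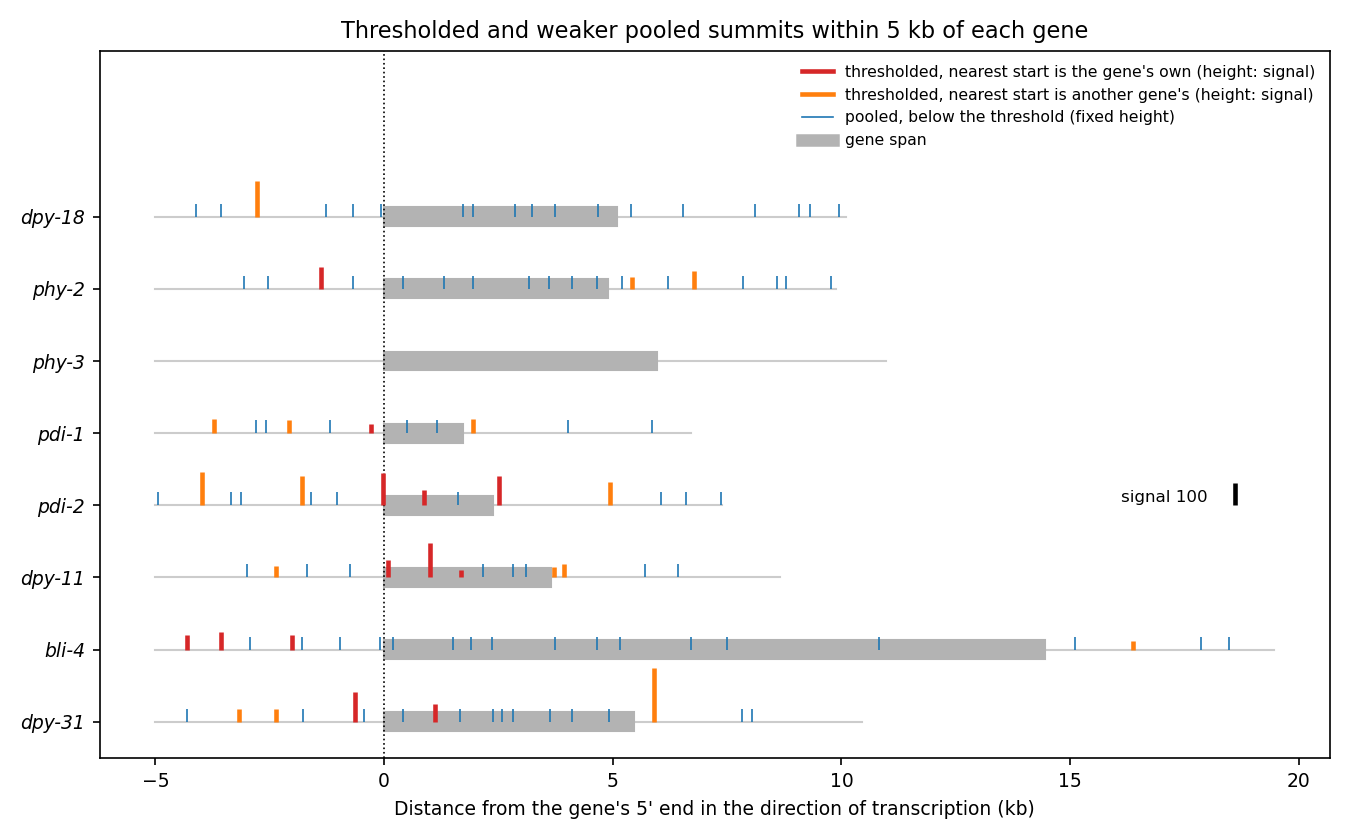
Summits of the pooled list around each of the 8 genes, by distance from the gene's 5′ end in the direction of transcription (kb). Thick red and orange lines are the 29 thresholded summits, with height proportional to signal, red where the nearest protein-coding start is the gene's own (13 summits) and orange where it is another gene's (16); thin blue lines are weaker pooled summits, and phy-3 has none of either.

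The number of summits differed widely among the members. Both pdi-2 and dpy-11 had 6 within 5 kb, a number reached by 76 of all protein-coding genes (0.381%). The gene dpy-31 had 5 (1.12% of genes have at least as many), pdi-1 and bli-4 had 4 each (2.74%), phy-2 had 3 (6.76%), dpy-18 had 1 (42.5%) and phy-3 had 0. The list's average density gives from 0.578 summits for the window of pdi-1 to 1.21 for that of bli-4. For every member but bli-4 this average is below 1, so a single summit exceeds it. That 7 members exceeded their average therefore adds little to their having a summit, and no such share is given for all genes. The median was 4.0 for the members and 0 for all genes.

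**Figure D2:**
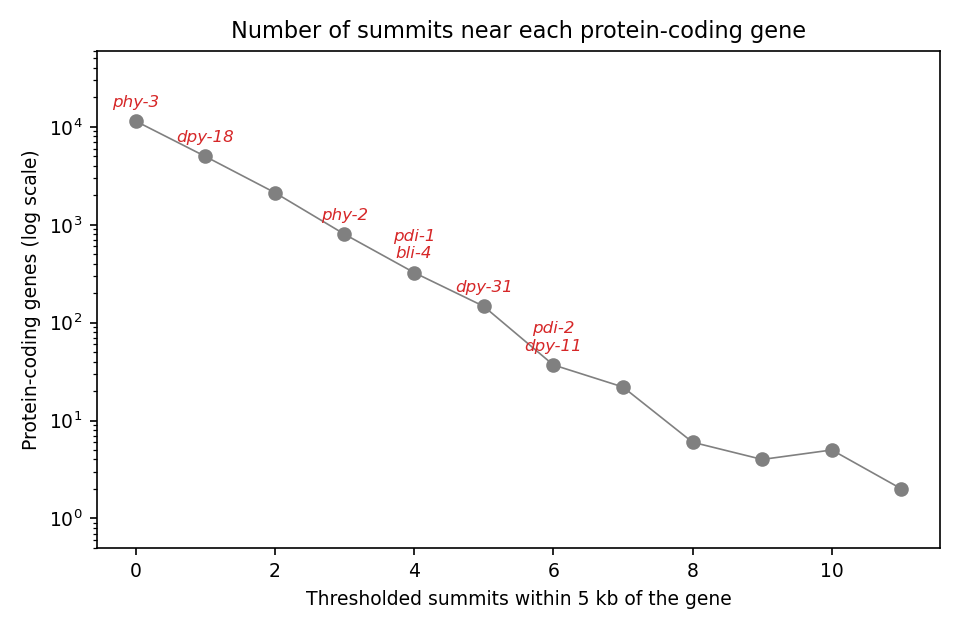
Number of protein-coding genes (log scale) by how many thresholded summits lie within 5 kb of the gene, with the 8 members named at their count. The members span 0 (phy-3) to 6 (pdi-2 and dpy-11), and 11487 genes are at 0.

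The genes for catalytic alpha subunits of prolyl 4-hydroxylase, dpy-18, phy-2 and phy-3, had 1, 3 and 0 thresholded summits within 5 kb. For dpy-18, the main cuticle alpha subunit (WBGene00001077, chromosome III, 11372886 to 11377980, minus strand), the only thresholded summit lay 2788 bp upstream, with a signal of 159.9 and rank 352. Its replicate signals were 73.5 (rank 381) in replicate 1 and 90.6 (rank 359) in replicate 2. The position was almost identical in both, with summits 4 bp and 10 bp away from the pooled one. The 4241 bp between dpy-18 and its divergent neighbour subs-4 hold this peak nearer to subs-4, 1454 bp upstream of its start, so the same summit counts in the promoter window of subs-4 and not in that of dpy-18. The promoter window of dpy-18 held only weaker pooled peaks, 1260 bp upstream (signal 26.8, rank 6378 of the pooled list), 671 bp upstream (24.8, rank 6866) and 66 bp upstream (8.88, rank 18510).

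The second alpha subunit gene, phy-2, acts partly redundantly with dpy-18 in making the cuticle (WBGene00004025, chromosome IV, 12211097 to 12215987, minus strand). It had a promoter summit 1386 bp upstream of its start, near the outer edge of the window, with a signal of 98.4 and rank 1062. Replicate 1 gave a signal of 33.3 there (rank 1974) and replicate 2 a signal of 67.2 (rank 743). The nearest protein-coding start to this summit was that of phy-2 itself, and the divergent neighbour F35G2.5 begins 3621 bp away from phy-2. The other summits lay past the 3′ end, 531 bp beyond it within F35G2.3 (signal 52.0, rank 3061) and 1885 bp beyond it, 202 bp upstream of marb-1 (signal 80.2, rank 1572). Weaker pooled peaks lay at 415 bp downstream of the start, in an intron (signal 27.6, rank 6168), and at 690 bp upstream (signal 21.2, rank 8020).

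The gene phy-3 encodes a smaller prolyl 4-hydroxylase alpha subunit that is not known for a role in the cuticle. Its region was bare in the thresholded, pooled and replicate 2 lists (WBGene00004026, chromosome V, 16833165 to 16839142, plus strand). It had 0 thresholded summits, 0 of the 30000 pooled peaks and 0 of replicate 2's peaks within 5 kb, where the average densities give 0.788, 4.78 and 4.33. Having 0 thresholded summits there is common, at 11487 of the 19973 protein-coding genes. No such number is given for the other lists. Replicate 1's list had 3 peaks within 5 kb of phy-3, where its average density gives 4.78. The strongest had a signal of 7.20 at rank 15707, 3703 bp upstream of the gene. The weak peak inside the promoter window, 476 bp downstream of a start, had a signal of 5.47 at rank 21729. Since the lists start at a minimum signal, 4.86 in the pooled list, they do not give the signal below it. Its neighbours within 5 kb, srh-214, srh-215, clec-40, clec-25 and the troponin gene tni-3, which overlaps phy-3 on the other strand, had no thresholded summit in their promoter windows either.

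The beta subunit of the hydroxylase is PDI-2, which is a protein disulfide isomerase in its own right and is needed for viability and a normal cuticle. Of the 6 summits near its gene, pdi-2 (WBGene00003963, chromosome X, 4524155 to 4526536, plus strand), 5 had rank 928 or better. The promoter summit lay 22 bp upstream of the start, with a signal of 143.1 and rank 466. It had signals of 64.9 in replicate 1 (rank 482) and 80.2 in replicate 2 (rank 494), so both replicates placed it at nearly the same rank. The annotated ncRNA C07A12.19 (4524046 to 4524172) covers this summit. The GC content within 50 bp of it was 66.3%, a level reached by 14 of the 4944 thresholded summits (0.283%), whose median was 43.6%.

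The other summits of pdi-2 lay on both sides. The one with the strongest signal of the 6, at 149.4 and rank 423, lay 3981 bp upstream and 12 bp upstream of a start of C07A12.7, within that gene's span. Another with a signal of 131.8 (rank 569) lay 1799 bp upstream of pdi-2 and 212 bp upstream of C07A12.7, in the 2010 bp that separate these divergent genes, and GAGAGA lay within 50 bp of it. The first of these ranked 564 in replicate 1 and 348 in replicate 2, and the second ranked 483 in replicate 1 and 705 in replicate 2. An intronic summit 867 bp into the gene, 835 bp downstream of the nearest start, was weaker, with a signal of 66.2 and rank 2148, and had GAGAGA within 50 bp. It ranked 861 in replicate 1 and 4232 in replicate 2, a far lower place in replicate 2. The only weaker pooled peak in the promoter window lay 1029 bp upstream (signal 5.79, rank 26586). Past the gene's end, summits lay 140 bp (signal 132.0, rank 566) and 2558 bp (signal 105.0, rank 928) downstream, and no protein-coding start lay nearer to the first of these than that of pdi-2.

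The gene pdi-1 encodes a further disulfide isomerase, which is transcribed together with the cyclophilin gene cyn-9 downstream of it (WBGene00003962, chromosome III, 3699739 to 3701461, minus strand). The annotation leaves 98 bp between these genes. Its promoter summit, 283 bp upstream of the start, was among the weaker thresholded peaks, with a signal of 42.6 and rank 3890. It ranked 2135 in replicate 1 (signal 31.7) and 6231 in replicate 2 (signal 16.3), which puts it among the 4944 strongest peaks of replicate 1 and outside those of replicate 2. The divergent neighbour C14B1.2 begins 798 bp away from pdi-1, and the same summit also counts in the promoter window of C14B1.2. A weaker pooled peak lay 1173 bp upstream of pdi-1 (signal 28.3, rank 6002).

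Its 3 other summits lay nearer to the starts of neighbours. The summit with a signal of 64.5 (rank 2247) lay 216 bp past the end of pdi-1 and 117 bp downstream of the start of cyn-9. The replicates disagreed on its strength, at rank 671 in replicate 1 and rank 4850 in replicate 2, whose summit lay 156 bp away. A summit 2084 bp upstream, 19 bp upstream of C14B1.3 (signal 56.4, rank 2732), went the other way, at rank 21169 in replicate 1 (signal 5.6) and rank 1106 in replicate 2 (signal 56.1). A summit 3717 bp upstream, 107 bp from the start of wdr-5.1 (signal 62.6, rank 2350), ranked 2289 and 2962 in replicates 1 and 2 and was thus the steadiest of the pdi-1 region.

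The gene dpy-11 encodes a membrane-bound thioredoxin-like protein of the epidermis that is needed for normal body shape (WBGene00001073, chromosome V, 6511583 to 6515240, minus strand). Its strongest summit lay in an intron, 1003 bp downstream of the gene's first start and 891 bp upstream of the start of its shorter transcript, with a signal of 153.3 and rank 391. Replicate 1 gave it a signal of 56.5 (rank 673) and replicate 2 a signal of 100.1 (rank 266). A second summit lay 86 bp downstream of the first start, in the 5′ UTR, with a signal of 77.3 and rank 1675, and with GAGAGA within 50 bp. It was steady between replicates, at rank 1608 in replicate 1 and rank 1894 in replicate 2.

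Another dpy-11 summit, 212 bp upstream of the shorter transcript's start, had a signal of 34.6 and rank 4895, close to the end of the list. It ranked 9322 in replicate 1 and 4350 in replicate 2. The upstream neighbour mdh-1, on the same strand, ends 42 bp before dpy-11 starts, and no thresholded summit lay in that space. Weaker pooled peaks of the promoter windows lay 742 bp upstream of the first start (signal 23.01, rank 7437) and 268 bp downstream of the other (signal 14.5, rank 11582). Around the downstream neighbour ubh-1, summits lay 68 bp (signal 47.3, rank 3434) and 269 bp (signal 61.0, rank 2435) past the end of dpy-11. A single peak of replicate 2 (rank 3548) holds both of these summits, while no peak of replicate 1 holds the second. A summit 2355 bp upstream (signal 51.3, rank 3119) lay 702 bp upstream of F46E10.3.

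**Figure D3:**
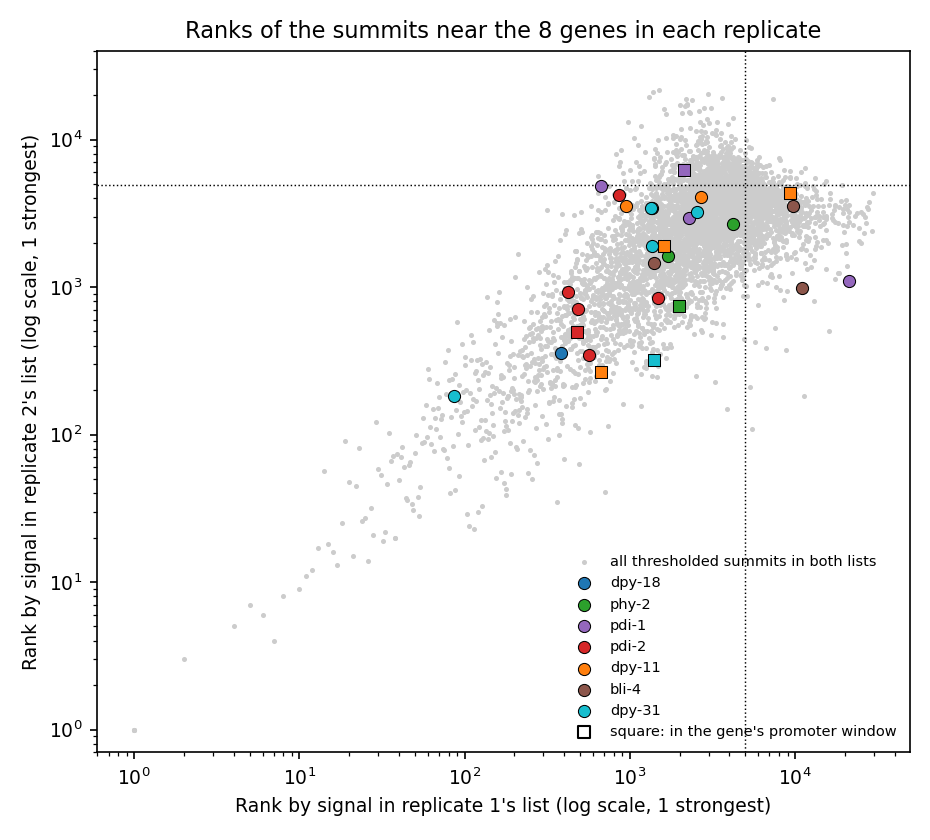
Rank by signal in replicate 1's list (x axis, log scale) and in replicate 2's list (y axis, log scale) of the 28 member summits held by a peak of both lists, coloured by gene, over all thresholded summits in both lists (grey); squares lie in the gene's promoter window and dotted lines mark rank 4944. The strongest summits of dpy-18, pdi-2, dpy-11 and dpy-31 lie at low ranks in both lists, and 4 summits (1 of pdi-1, 2 of bli-4 and 1 of dpy-11) lie beyond rank 4944 in replicate 1.

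The proteases that trim procollagen both had summits upstream of the start, though only dpy-31 had one in the promoter window. The gene dpy-31 encodes an astacin metalloprotease that cleaves the C-terminal end of procollagen (WBGene00006592, chromosome III, 7202206 to 7207664, plus strand). Its promoter summit lay 644 bp upstream, with a signal of 133.4 and rank 546, and it is the stretch above that holds both marked strings. Replicate 1 gave a signal of 39.8 (rank 1397) with its summit 122 bp closer to the gene, and replicate 2 a signal of 93.6 (rank 322) with its summit 1 bp away. An intronic summit 666 bp downstream of the nearest start had a signal of 80.9 and rank 1548, with ranks of 1356 in replicate 1 and 1891 in replicate 2. Between the promoter summit and the first start, a weaker pooled peak lay 443 bp upstream (signal 25.6, rank 6668). Another lay in an intron, 45 bp upstream of the other annotated start (signal 12.19, rank 13592).

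The strongest peak near any member lay 437 bp past the end of dpy-31, with a signal of 238.8 and rank 115. It is 346 bp upstream of rpl-6, a ribosomal protein gene on the same strand, and ranked 86 in replicate 1 and 184 in replicate 2. The remaining summits, 2368 bp (signal 57.7, rank 2625) and 3169 bp upstream (signal 57.0, rank 2689), lay 954 bp and 153 bp upstream of the divergent gene pfd-5.

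The gene bli-4 encodes a furin-like proprotein convertase that cleaves the N-terminal end of procollagens (WBGene00000254, chromosome I, 6342224 to 6356680, plus strand, 11 annotated transcripts). It had 3 thresholded summits upstream, all outside the promoter window, at 2010 bp (signal 66.9, rank 2108), 3568 bp (79.6, rank 1590) and 4305 bp (66.3, rank 2140). The nearest gene on that side, F26B1.8, ends 12042 bp away, and the start of bli-4 was the nearest protein-coding start to each of the 3. A nuclear receptor half-site lay within 50 bp of the summits at 2010 and 4305 bp, and GAGAGA within 50 bp of the one at 2010 bp.

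The replicates differed more at some of these upstream sites of bli-4 than at others. The summit at 3568 bp ranked 1403 in replicate 1 and 1453 in replicate 2, and the one at 2010 bp ranked 1358 and 3462. The one at 4305 bp ranked 11063 in replicate 1 (signal 9.5) and 990 in replicate 2 (signal 58.9), so it was strong in 1 replicate alone. Nearer to the start, pooled peaks lay 974 bp (signal 21.0, rank 8093) and 81 bp upstream (signal 17.7, rank 9556), both below the threshold, and a further one lay 24 bp upstream of another of its starts (signal 6.38, rank 24685). The fourth thresholded summit lay 1918 bp past the end of the gene, 13 bp downstream of the start of K04F10.3 (signal 40.0, rank 4168). It ranked 9773 in replicate 1 and 3557 in replicate 2.

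Over the 29 summits, fewer were nearest to the start of an enzyme gene than to that of a neighbour. The nearest protein-coding start was the member's own for 13 and another gene's for 16, and 7 lay in the member's own promoter window. Of the 29, 15 lay upstream of the member, 9 downstream of it, 4 in its introns and 1 in its 5′ UTR, and 0 lay in its coding sequence. No such counts by nearest start, own promoter window or place are given for the summits near all protein-coding genes, so these have no background. The promoter window of some protein-coding gene held 21 of the 29, against 64.4% of all thresholded summits. The median distance to the nearest protein-coding start was 346 bp for member summits and 584 bp for all thresholded summits. The 2472 strongest peaks of the list held 20 of the 29.

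Most member summits recurred in both replicates, as most of the list did. A peak of both full replicate lists held 28 of the 29 summits, against 96.5% of all thresholded summits. When each replicate's list was limited to its 4944 strongest peaks, 23 of the 29 (79.3%) lay in both, against 67.4% of all. Replicate 1's strongest peaks held 24 of the 29, against 3942 of all 4944, and replicate 2's held 28, against 4207. The summits recurred at a median of 7 bp from the pooled position, against 10 bp for all. The thresholded list was itself made from both replicates, so this recurrence is no independent check. With the 4944 strongest peaks of replicate 1 alone, the promoter windows of 5 members held a summit, against 18.3% of all genes. With those of replicate 2 alone, those of 4 members did, against 19.3% of all genes, pdi-1 being the one without.

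The short strings lay at a minority of the member summits. A nuclear receptor half-site, AGGTCA or GGGTCA on either strand, lay within 50 bp of 4 of the 29 summits (phy-2 at rank 1062, dpy-31 at rank 546 and bli-4 at ranks 2108 and 2140), against 11.0% of all thresholded summits. The half-sites reversed but not complemented, ACTGGA or ACTGGG, lay at 2 of the 29, against 5.46% of all. GAGAGA lay at 6 of the 29 (pdi-1 at rank 3890, pdi-2 at ranks 569 and 2148, dpy-11 at rank 1675, bli-4 at rank 2108 and dpy-31 at rank 546), against 26.5% of all. The half-site count depends on the window searched, and so does its distance from the share of the whole list. The median GC content within 50 bp was 42.6% at member summits.

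Other genes of the pathway were taken in 4 lists, chosen with earlier results of these data known. Of 38 genes in these lists, 20 (52.6%) had a thresholded summit in the promoter window, where 19.4% of all protein-coding genes did. The ER chaperone and peptidyl-prolyl isomerase list stood highest, with 11 of 13. Its strongest promoter summits were those of hsp-3, a BiP-type chaperone (23 bp upstream, rank 221), enpl-1, an ER Hsp90 (72 bp upstream, rank 378), fkb-5, an FK506-binding isomerase (108 bp upstream, rank 429), and uggt-1, a glycoprotein folding sensor (169 bp upstream, rank 463). Calreticulin crt-1 (rank 824), the cyclophilins cyn-6 (rank 1530), cyn-5 (rank 2017) and cyn-9 (rank 2247), fkb-3 (rank 1729), the second BiP gene hsp-4 (rank 1799) and calnexin cnx-1 (rank 3518) followed. The summit of cyn-9 is the one described beside pdi-1. The genes fkb-4 and fkb-7 had no summit in the window, though 1 lay within 5 kb of fkb-7.

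The list of further hydroxylases and disulfide enzymes had 4 of 8. These were pdi-3 (649 bp upstream, rank 142) and pdi-6 (16 bp upstream, rank 229), both disulfide isomerases, and the thioredoxin-domain genes txdc-12.1 (725 bp upstream, rank 484) and txdc-12.2 (166 bp upstream, rank 623). The prolyl hydroxylase gene phy-4, the lysyl hydroxylase gene let-268, the disulfide oxidase gene ero-1 and C14B9.2 had no summit there. For let-268, 4 thresholded summits lay within 5 kb, and for C14B9.2 1, while phy-4 and ero-1 had 0.

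The list for export from the ER had 4 of 7. These were the coat protein genes sec-24.1 (rank 328) and npp-20 (rank 4172), the GTPase gene sar-1 (rank 1838) and tmem-131 (rank 827), which encodes a membrane protein needed for collagen secretion. The genes sec-23, sec-24.2 and trpp-8 had none in the window, though 3 thresholded summits lay within 5 kb of trpp-8. Among relatives of the trimming proteases and cuticle genes that act beside them, 1 of 10 had one, bli-3, at rank 4860 and 1179 bp upstream. This gene encodes a dual oxidase that cross-links the cuticle and is not a protease. The list's convertases (kpc-1, egl-3, aex-5), astacins (nas-6, nas-7, nas-36, nas-37, nas-38) and inhibitor (bli-5) had no promoter summit. Thresholded summits did lie within 5 kb of nas-7 (2), egl-3 (1), nas-37 (1) and bli-5 (1), where 42.5% of all protein-coding genes have one.

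**Figure D4:**
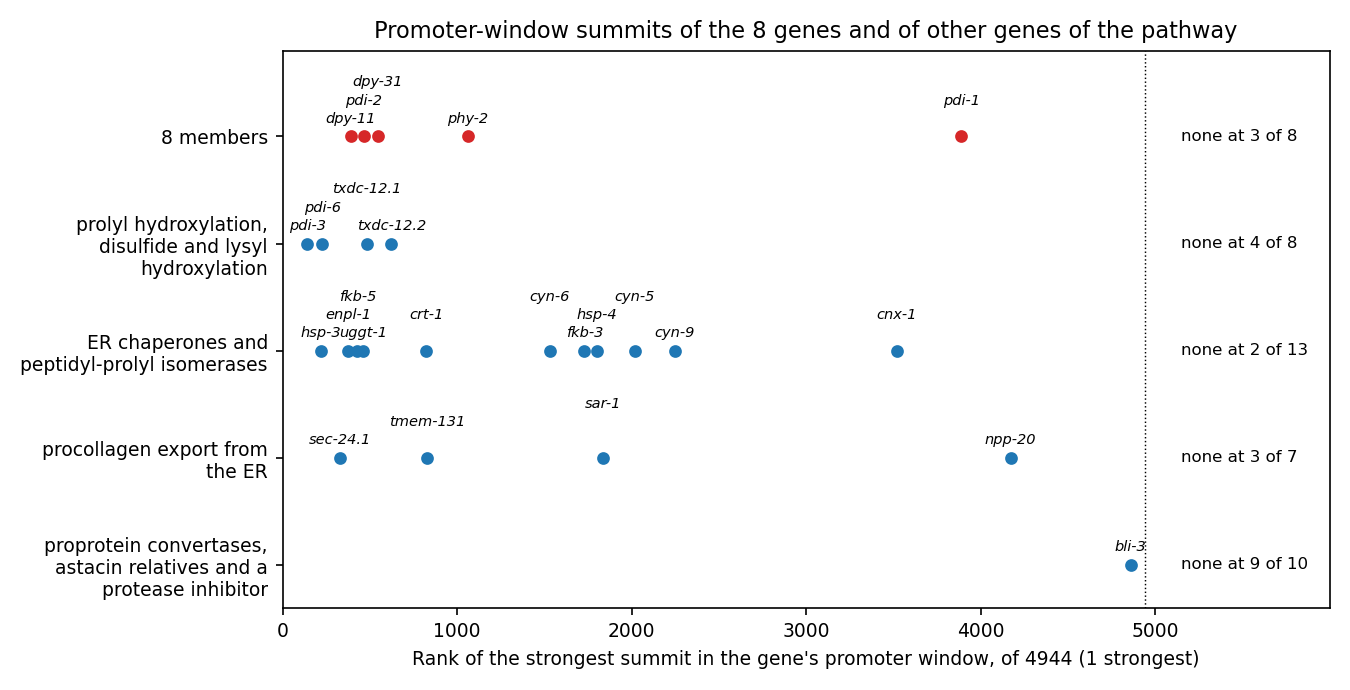
Rank of the strongest thresholded summit in each gene's promoter window (x axis, 1 strongest of 4944) for the 8 members (red) and for 4 lists of other genes of the pathway (blue), with the number without such a summit at the right. Of the members, dpy-11, pdi-2 and dpy-31 lie between ranks 391 and 546. A summit lies in the window of 11 of 13 chaperone and isomerase genes. In the list with the protease relatives it is 1 of 10 (bli-3, not a protease), where 19.4% of all protein-coding genes have one.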

How the data were processed

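ChIP-seq of eGFP-tagged NHR-23 was carried out in 2 biological replicates of L3 larvae. Per the deposited text files, the authors called peaks on ce11 for each replicate against a control and on the pooled alignments, and derived the thresholded list from these 3 lists with IDR (irreproducible discovery rate). Aligner, caller, threshold and software versions: not given in the sources used here. Each deposited peak has a signal value and a −log10 q-value. The q-value column was 4.21 at every thresholded peak and was not used for ranking.

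Summits (peak start plus offset) were placed on Ensembl release 115 gene models of WBcel235, the ce11 assembly, with 1-based coordinates. A replicate peak matched a summit when its interval held it. Promoter windows used every annotated start of a protein-coding transcript; many worm transcripts are trans-spliced, so true starts can lie upstream. Most counts are given beside the same count over all protein-coding genes or summits. All are descriptions, and no test was made. Python 3.11.15 and numpy 2.4.6 were used, and the functions were checked on simulated positions and sequences. The members and gene lists were chosen with earlier results of these data known. The text names all 8 members, all their thresholded summits, and the listed pathway genes. Of 39 listed pathway symbols, 1 (sec-13) matched no gene model.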

Additional observations from a re-analysis of the deposited data

How the results depend on the processing

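The number of members with a thresholded summit within 5 kb was 6 with a distance of 2 kb, where dpy-18 dropped out (29.0% of all genes), and 7 under every other alternative run. The share of all genes was 57.4% with 10 kb, 27.0% with the 2472 strongest peaks, 33.3% with peaks among the strongest of both replicates, 40.9% with replicate 1's 4944 strongest peaks alone and 42.5% with replicate 2's. For the promoter window it was 3 with 500 bp upstream, where phy-2 and dpy-31 dropped out (13.8% of all genes), and 7 with 3000 bp upstream, where dpy-18 and bli-4 came in (24.7% of all genes). It was 5 with replicate 1's strongest peaks alone (18.3%) and 4 with replicate 2's (19.3%), with the 2472 strongest peaks (11.4%) and with peaks among the strongest of both replicates (14.4%). The 29 summits near members became 18 within 2 kb and 27 and 29 with the single replicates. Half-sites lay at 4 of the 29 summits within 25 bp, at 9 within 100 bp and at 11 in whole peaks, against 5.46%, 19.1% and 21.7% of all thresholded peaks. The reversed strings were counted within 50 bp only. GAGAGA lay at 1 within 25 bp, at 11 within 100 bp and at 13 in whole peaks, against 14.9%, 39.6% and 42.8% of all. Pathway genes with a promoter summit numbered 15 to 22, and 19 and 20 with the single replicates. Summits among the strongest of both replicates numbered 20 when summits had to lie within 100 bp, an alternative chosen after seeing the data. No share of all thresholded summits is given for that rule, and the 67.4% above belongs to matching by interval. Percentiles in lists of different sizes are not comparable. No paired analysis was possible because the samples form 1 group. Without read counts, a site missing from a list has only the list's lowest signal as its limit, 3.90 in replicate 1 and 2.00 in replicate 2.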
